A study of Mus musculus with 6 samples.

Results

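Interferon-stimulated genes were followed in a mouse model of B-cell acute lymphoblastic leukaemia driven by N-myc, with and without Cdh1. A list of 31 such genes was read from expression arrays by symbol, and where a gene had several probe sets the one brightest on average over the 6 arrays stood for it. Of the 31 genes 29 had a probe set annotated to that symbol alone, among 18193 genes in all. Isg15 shared its probe set with another symbol and Ifi44 was not analysed here. The Cdh1-deficient group (n = 3 mice) came from Mx1-Cre(+)/Cdh1f/f donors and the Cdh1-intact group (n = 3 mice) from Mx1-Cre(-)/Cdh1f/f littermates, on a C57BL/6 background. The allele is a conditional gene trap, written Cdh1GT [f-cDNA] in the labels. Donors of both groups received pIpC at 7 to 8 weeks of age, and their marrow was taken 4 weeks after the last injection and 2 days after 150 mg/kg 5-fluorouracil. Both groups carried N-myc in the retroviral vector pMXs-IG, and GFP-positive marrow mononuclear cells were sorted from each moribund mouse, with 1 array per mouse. The labels do not state whether the transduced cells passed through recipient mice. The array labelled Cdh1-intact 2 did not show the marker levels of a B-cell sample, as given below. The Cre transgene was present in the Cdh1-deficient group alone, so its presence and the loss of Cdh1 cannot be told apart.

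Type I interferons bind a receptor whose kinases phosphorylate STAT2. With IRF9 it takes part in a complex that binds the interferon-stimulated response element in promoters and switches on a large set of antiviral genes. IRF7, itself induced, then amplifies production of the interferons. The same pathway underlies the mouse model: pIpC is a synthetic double-stranded RNA that elicits interferon, and the Cre transgene is driven by the promoter of Mx1, an interferon-stimulated gene. It acts in any cell that answers interferon and is not specific to B cells.

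RefSeq promoter sequences (assembly GRCm38.p6, from 250 bases before to 50 after each gene's start) were matched by symbol for 22 of the 31 genes. The core of the response element was searched as GAAA, any 2 bases and GAAA, or on the other strand as TTTC, any 2 bases and TTTC, and overlapping matches were counted separately. It was found in the promoters of 13 of the 22 genes (59.1%), against 1079 of 27025 genes with a promoter sequence (3.99%). At least 2 cores lay in 1 promoter for 6 of the 22 genes (27.3%), against 0.266% of all genes. The core of the gamma-activated site, TTC, any 3 bases and GAA, which reads the same on both strands, was found in 4 of 22 genes (18.2%), against 9.55% of all. Both motifs were searched over all 300 bases of each sequence. A match describes letters and is not a measured binding site. The stretches below are printed for 6 genes described later, upstream of the start site, 5′ to 3′ on the gene's strand, with the cores in capitals.
Ifit1: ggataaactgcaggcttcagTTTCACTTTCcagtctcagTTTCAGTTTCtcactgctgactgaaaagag
Ifit3: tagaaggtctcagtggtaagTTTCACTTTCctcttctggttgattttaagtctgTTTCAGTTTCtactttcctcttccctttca
Oas1a: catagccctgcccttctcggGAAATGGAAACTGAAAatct
Rsad2: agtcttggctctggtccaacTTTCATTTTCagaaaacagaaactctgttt
Bst2: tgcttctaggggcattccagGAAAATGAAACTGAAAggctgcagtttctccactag
Gbp3: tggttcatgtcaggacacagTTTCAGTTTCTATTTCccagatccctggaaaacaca
The Ifit1 stretch is chr19:34640765-34640833 and the Ifit3 stretch chr19:34583353-34583436, both on the plus strand and each with 2 separate cores. On the minus strand lie the Oas1a stretch at chr5:120907526-120907565, that of Rsad2 at chr12:26456543-26456592 and that of Bst2 at chr8:71537567-71537622. The Gbp3 stretch is chr3:142559979-142560034 on the plus strand. In Oas1a, Bst2 and Gbp3 a pair of cores overlap, so that they form 1 run of capitals. Rsad2 has a single core. No core of the response element was found in the sequences given for Irf7 and Ifit2.

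The arrays were not alike in their levels of cell type markers. Values are log2 levels after RMA (a background correction, normalization and summary per probe set). On the array labelled Cdh1-intact 2, the B-cell receptor gene Cd79b stood at 4.35 against 11.60 to 12.47 on the other 5 arrays. The T-cell receptor gene Cd3g reached 12.48 there and 7.95 on Cdh1-intact array 3, while the remaining 4 arrays read 3.25 to 3.53. Mycn, which encodes N-myc, stood at 13.13 on Cdh1-intact array 2, against 13.41 to 13.70 on the other 5 arrays. Over the 11 T and NK cell markers the mean level was 4.82 to 4.85 on the Cdh1-deficient arrays, against 5.10, 8.62 and 6.11 on Cdh1-intact arrays 1, 2 and 3. Of these markers Cd8a, Gzmb, Klrd1 and Ncr1 stood at 2.863 to 5.275 on Cdh1-intact array 2 and were not highest there, while the others were. Over 7 B-cell markers the mean level was 8.71 to 9.17 on the Cdh1-deficient arrays, against 8.93, 4.59 and 9.47. The 7 neutrophil markers averaged 9.77 to 11.42, against 10.61, 6.48 and 9.83, and the 7 monocyte and macrophage markers 5.18 to 5.66, against 6.39, 4.73 and 5.41. The 4 erythroid markers averaged 4.75 to 5.04 in Cdh1-deficient samples, against 6.13, 4.88 and 4.67. Alas2 stood at 9.31 on Cdh1-intact array 1, against 4.82 to 5.61 elsewhere. Klf1 was also highest there, while Hba-a1 and Epor were not. The 6 markers of plasmacytoid dendritic cells, the chief interferon producers, averaged 5.79 to 6.20, against 5.48, 6.12 and 5.43. Of these markers Cox6a2 alone was higher on every Cdh1-deficient array (8.69 to 10.73, against 6.44 to 7.76). Lair1 reached 7.76 on Cdh1-intact array 2, against 4.33 to 5.09 elsewhere, and Siglech stayed between 4.95 and 5.33 on all arrays. C1qa, a complement gene of macrophages chosen after its values were seen, reached 7.63 on Cdh1-intact array 1, while the other 5 arrays read 4.50 to 5.33. The part of these cell markers in the differences below was not tested. In such samples, fewer cells of a type and less RNA per cell cannot be told apart.

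The targeted gene is Fzr1, which encodes the Cdh1 protein. It stood at 8.10, 7.73 and 8.22 on Cdh1-deficient arrays 1, 2 and 3 and at 8.92, 8.04 and 8.92 on the Cdh1-intact arrays, a difference of −0.61 (SE 0.28, adjusted p = 0.849, limma). The position of its probes relative to the trap is unknown here, so the values do not check the labels.

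No interferon-stimulated gene passed the test between Cdh1-deficient and Cdh1-intact samples. With limma over 18193 genes and Benjamini-Hochberg adjustment, 0 of the 29 members had an adjusted p under 0.05, and 0% of all genes did. At an unadjusted p under 0.05 there were 2 members, Irf7 and Rtp4, both lower in Cdh1-deficient cells, where 5.50% of all genes reached that p and 1.49% reached it in the lower direction. No member reached it in the higher direction, against 4.01% of all genes. Differences ran from −0.83 for Usp18 to 0.42 for Ifih1 (log2 level in Cdh1-deficient cells minus that in Cdh1-intact cells). They were below 0 for 19 of the 29 members, against 49.1% of all genes, and above 0 for 10, against 50.9%. The median was −0.10, against 0.0034 over all genes. With each array centred on its median, 24 of 29 were below 0, against 63.4% of all genes. The groups did not overlap for 3 members, Irf7, Usp18 and Ifit3, all lower in Cdh1-deficient cells, where 11.7% of all genes did not overlap and 5.09% were lower in that way. The mean level of the 29 members was 6.00, 6.10 and 5.93 on Cdh1-deficient arrays 1, 2 and 3 and 6.13, 6.08 and 6.34 on the Cdh1-intact arrays, so the groups overlapped narrowly. The 95% intervals of the differences extended 0.21 to 1.79 to either side, with a median of 0.55.

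**Figure D1:**
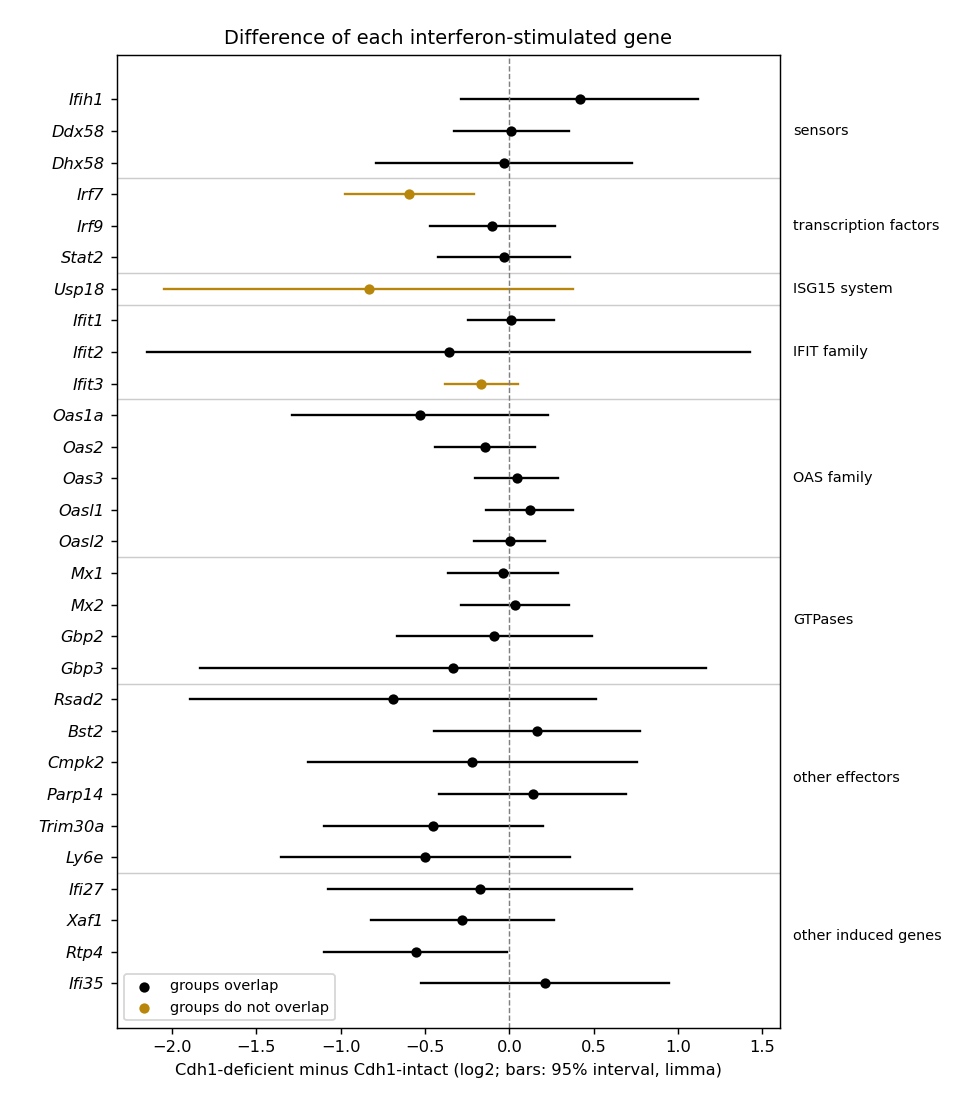
Log2 difference of each of the 29 members, Cdh1-deficient minus Cdh1-intact, grouped by role. Points are limma estimates and bars their 95% intervals (3 arrays a group), gold where the 3 arrays of one group lay beyond those of the other. The intervals of Irf7 and Rtp4 alone leave out 0 before adjustment.

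Leaving out single arrays moved these counts. Without Cdh1-intact array 2, 20 of 29 members were below 0 with a median of −0.18, and 3 members (Irf7, Gbp3 and Dhx58) had an unadjusted p under 0.05, against 6.17% of all genes. Without Cdh1-deficient array 3 the split was 15 below and 14 above 0 with a median of −0.02, and without Cdh1-intact array 3 it was 16 and 13 with a median of −0.04. Irf7 was the sole member with an unadjusted p under 0.05 when Cdh1-deficient array 1 or 3 was left out, against 5.46% and 2.43% of all genes, so 1 of 29 lies near the background. Adjusted p stayed above 0.05 for every member in all 14 alternative settings.

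**Figure D2:**
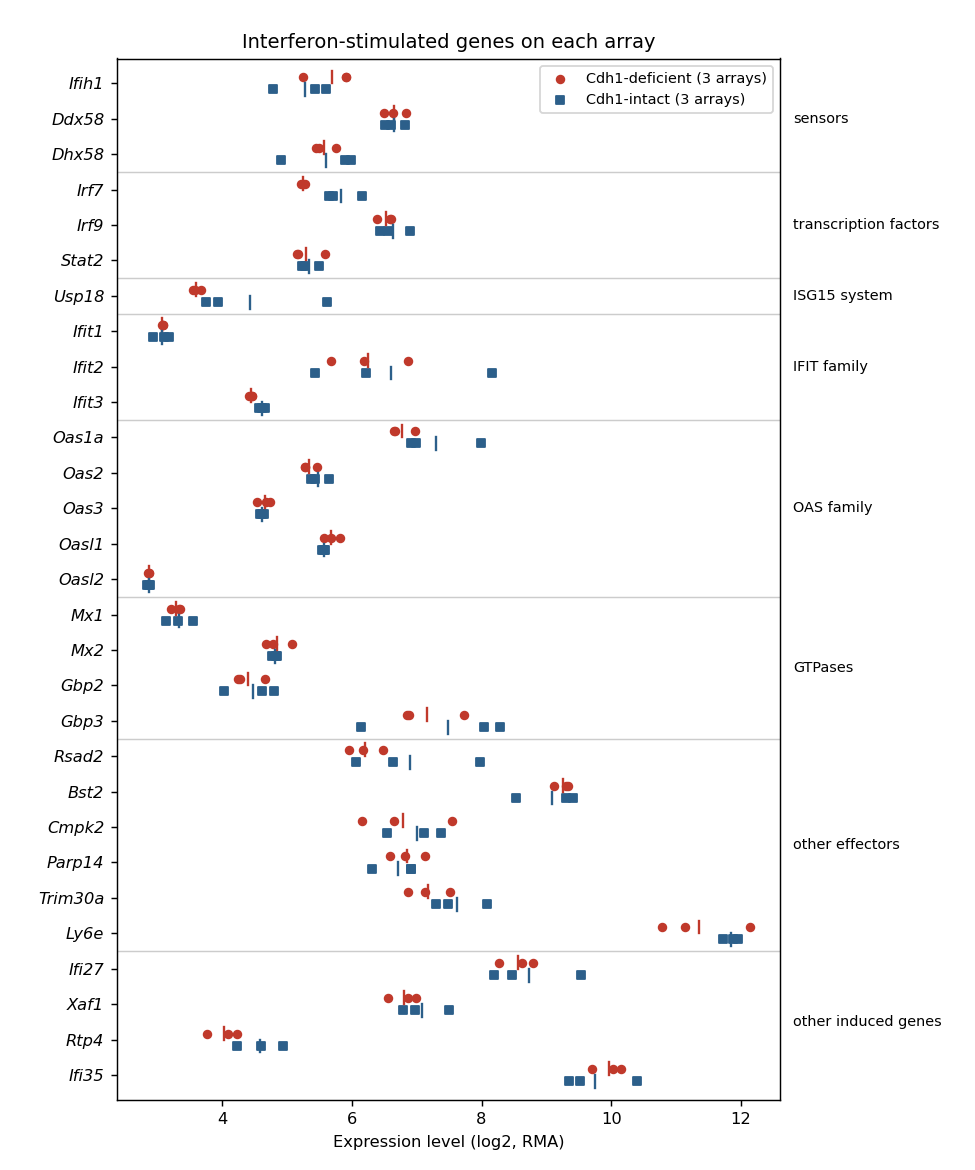
Log2 level of each of the 29 members on the 3 Cdh1-deficient arrays (circles) and, below them, the 3 Cdh1-intact arrays (squares), with group means as vertical lines. Levels can be compared between arrays for 1 gene but not between genes, since probes differ in how they bind. Irf7, Usp18 and Ifit3 are the 3 genes whose groups do not overlap.

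The transcription factors of the pathway were led by Irf7, the interferon-induced amplifier of interferon production (chromosome 7). Its levels were 5.21, 5.24 and 5.28 on Cdh1-deficient arrays 1, 2 and 3 and 6.15, 5.65 and 5.71 on the Cdh1-intact arrays. All Cdh1-deficient arrays lay close together and below every Cdh1-intact array. The difference was −0.59 (SE 0.16, unadjusted p = 0.00907, adjusted p = 0.849, limma), a ratio of 0.663. It lay between −0.69 and −0.44 in the 13 alternative settings that kept this probe set, and at −0.69 without Cdh1-intact array 2. Irf9, the DNA-binding subunit of the interferon-activated complex, averaged 6.53 ± 0.12 in Cdh1-deficient and 6.63 ± 0.23 in Cdh1-intact cells (SD, n = 3 each). Stat2, its partner, averaged 5.30 ± 0.25 and 5.33 ± 0.14. Neither of these differed beyond the spread between arrays, with 95% intervals of −0.47 to 0.27 for Irf9 and −0.43 to 0.36 for Stat2.

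The cytosolic RNA sensors showed no shared direction. Ifih1, a sensor of long double-stranded RNA, stood at 5.25, 5.90 and 5.91 on the Cdh1-deficient arrays and at 4.78, 5.60 and 5.43 on the Cdh1-intact arrays. The lowest value was on Cdh1-intact array 1 and the groups overlapped at Cdh1-deficient array 1. Its difference of 0.42 (SE 0.29, adjusted p = 0.849, limma) was the highest of the 29. It was 0.64 without Cdh1-deficient array 1 and 0.17 without Cdh1-intact array 1, where that of Bst2, at 0.33, was above it. Ddx58, which encodes the sensor RIG-I, averaged 6.66 ± 0.17 in Cdh1-deficient and 6.64 ± 0.16 in Cdh1-intact cells (SD, n = 3 each). Dhx58, a regulator of both sensors, averaged 5.56 ± 0.17 and 5.59 ± 0.60, and its lowest value, 4.90, was on Cdh1-intact array 2. Without that array its difference moved from −0.03 to −0.38.

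Usp18 removes the ubiquitin-like protein ISG15 from its targets and restrains signalling at the interferon receptor. It stood at 3.58, 3.67 and 3.54 on Cdh1-deficient arrays 1, 2 and 3 and at 3.75, 3.94 and 5.61 on the Cdh1-intact arrays. The groups did not overlap, but 1 array, Cdh1-intact 3, stood far above the rest. The difference of −0.83 (SE 0.49, adjusted p = 0.849, limma) shrank to −0.25 without that array. Its mean over all arrays lay under the lower quartile of all genes (4.26), as did those of Ifit1, Mx1 and Oasl2.

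**Figure D3:**
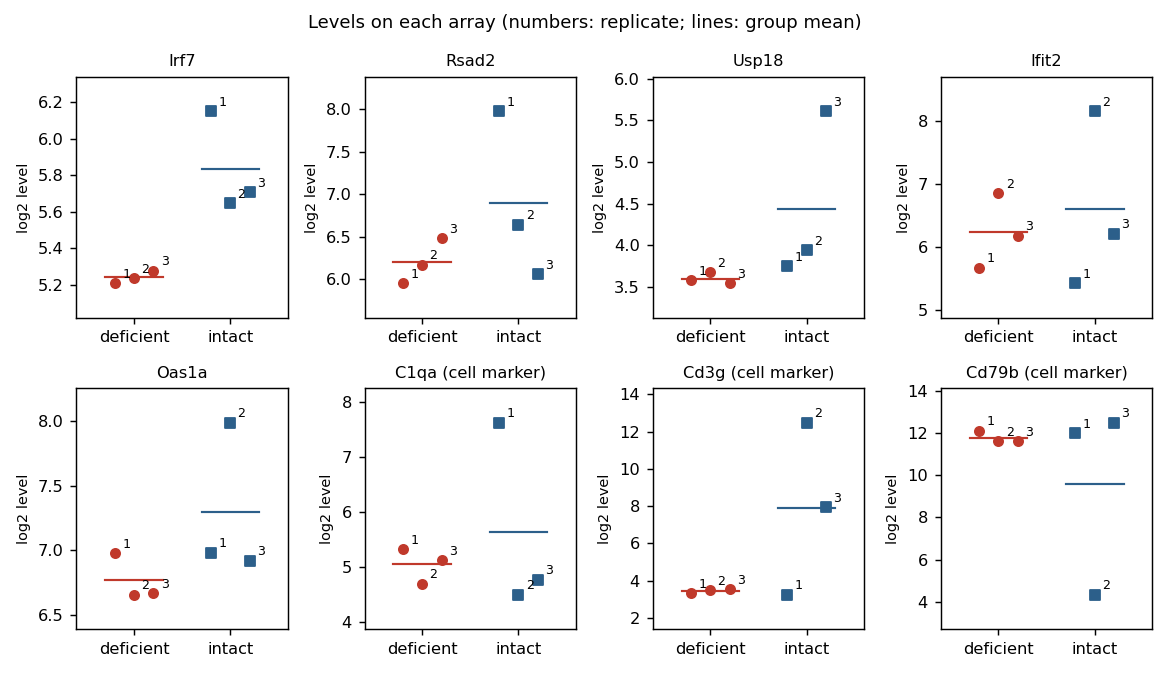
Log2 level on each array for 5 members and 3 cell markers, Cdh1-deficient left and Cdh1-intact right, with replicate numbers beside the points and group means as lines. Rsad2 and the macrophage gene C1qa are highest on Cdh1-intact array 1, Ifit2, Oas1a and the T-cell gene Cd3g on Cdh1-intact array 2, and Usp18 on Cdh1-intact array 3. Each shared peak is 1 array, and a link was not tested.

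The IFIT proteins bind viral RNA and block its translation. Ifit2 stood at 5.68, 6.86 and 6.18 on the Cdh1-deficient arrays and at 5.43, 8.16 and 6.22 on the Cdh1-intact arrays. Cdh1-intact array 2, rich in T-cell transcripts, was the highest and Cdh1-intact array 1 the lowest, so the Cdh1-deficient arrays lay inside the range of the others. The difference of −0.36 (SE 0.73) turned to 0.42 without Cdh1-intact array 2. Ifit3 averaged 4.44 ± 0.02 in Cdh1-deficient and 4.61 ± 0.05 in Cdh1-intact cells (SD, n = 3 each), with no overlap but a difference of only −0.17 (SE 0.09, adjusted p = 0.849, limma). Ifit1 stayed between 2.92 and 3.17 on all 6 arrays, although its promoter holds 2 cores of the response element.

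The OAS enzymes make oligoadenylates that activate RNase L. Oas1a stood at 6.98, 6.66 and 6.67 on the Cdh1-deficient arrays and at 6.98, 7.99 and 6.92 on the Cdh1-intact arrays. Again Cdh1-intact array 2 was alone in being high, and the groups overlapped. The difference was −0.53 (SE 0.31, adjusted p = 0.849, limma), and −0.18 without that array. The other 4 varied little: their difference was −0.14 for Oas2, 0.04 for Oas3, 0.0022 for Oasl2 and 0.12 for Oasl1, which in mice restrains translation of Irf7 mRNA. The Oas2 difference was −0.057 with Cdh1-intact array 1 left out, and that of Oasl1 was 0.054 with Cdh1-deficient array 3 left out and 0.046 with median centring. Oasl2 spanned 2.84 to 2.88 over all arrays.

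Mx1 and Mx2 encode dynamin-like GTPases that block virus replication, and C57BL/6 mice are known to carry a defective Mx1. The probe set of Mx1 lay between 3.13 and 3.54 on all arrays, with a difference of −0.04 (SE 0.13). Mx2 averaged 4.84 ± 0.21 in Cdh1-deficient and 4.81 ± 0.04 in Cdh1-intact cells (SD, n = 3 each). The guanylate-binding proteins Gbp2 and Gbp3, induced mainly by interferon-gamma, act on the vacuoles of intracellular pathogens. Gbp3 stood at 7.74, 6.88 and 6.84 on the Cdh1-deficient arrays and at 8.03, 6.14 and 8.29 on the Cdh1-intact arrays. Here Cdh1-intact array 2 was the lowest of the 6 and its group's other arrays the highest. The difference of −0.33 (SE 0.61) became −1.005 without it (adjusted p = 0.801, limma). Gbp2 was likewise lowest on Cdh1-intact array 2, at 4.03, against 4.25 to 4.80 elsewhere.

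Rsad2, or viperin, makes a nucleotide that stops viral RNA synthesis. It stood at 5.95, 6.17 and 6.48 on the Cdh1-deficient arrays and at 7.97, 6.64 and 6.06 on the Cdh1-intact arrays. Cdh1-intact array 1 was well above the rest, and Cdh1-intact array 3 lay among the Cdh1-deficient arrays. C1qa was highest on Cdh1-intact array 1 as well. The lowest C1qa, 4.50, was on Cdh1-intact array 2, where Rsad2 stood at 6.64. Cdh1-deficient array 1, lowest in Rsad2, had C1qa at 5.33, and a link was not tested. The difference of Rsad2 was −0.69 (SE 0.49, adjusted p = 0.849, limma). It came to −0.15 with Cdh1-intact array 1 left out and to −1.10 with array 3 of that group left out. The brightest probe set of Cmpk2, a mitochondrial nucleotide kinase gene that lies beside Rsad2 on chromosome 12, did not follow Rsad2. It was highest on Cdh1-deficient array 2 (7.54) and stood at 6.54 on Cdh1-intact array 1. The other Cmpk2 probe set was highest on Cdh1-intact array 1, at 4.61, against 4.26 to 4.53 elsewhere.

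Ly6e, a surface protein with roles in virus entry, stood at 11.14, 12.14 and 10.79 on the Cdh1-deficient arrays and at 11.88, 11.96 and 11.72 on the Cdh1-intact arrays. Cdh1-deficient array 2 was the highest of all and the other Cdh1-deficient arrays the lowest. The difference of −0.50 (SE 0.35, adjusted p = 0.849, limma) was −0.89 without Cdh1-deficient array 2 and −0.21 without Cdh1-deficient array 3. The mean of the neutrophil markers was highest on Cdh1-deficient array 2 as well, at 11.42. It was lowest on Cdh1-intact array 2, at 6.48, where Ly6e stood at 11.96, and a link was not tested. The other Ly6e probe set was highest on Cdh1-intact array 1, at 9.58, against 8.77 on Cdh1-deficient array 2. Trim30a, which in mice restrains Toll-like receptor signalling, averaged 7.17 ± 0.33 in Cdh1-deficient and 7.62 ± 0.41 in Cdh1-intact cells (SD, n = 3 each), a difference of −0.45 (SE 0.26). Leaving out Cdh1-intact array 3 gave −0.22, leaving out Cdh1-deficient array 3 gave −0.30, and it was −0.27 with the mean of its probe sets. Bst2, or tetherin, which holds budding virus at the cell surface, was down at 8.54 on Cdh1-intact array 2, while the other 5 arrays read 9.12 to 9.41. Its difference of 0.16 turned to −0.11 without that array. Parp14, an ADP-ribosyltransferase, differed by 0.14 (SE 0.23).

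Rtp4, a receptor transporter protein gene, stood at 4.23, 3.76 and 4.09 on the Cdh1-deficient arrays and at 4.22, 4.60 and 4.93 on the Cdh1-intact arrays. The groups overlapped by a narrow margin, at Cdh1-deficient array 1 and Cdh1-intact array 1. The difference was −0.56 (SE 0.22, unadjusted p = 0.0468, adjusted p = 0.849, limma), and −0.32 with the mean of its probe sets. Xaf1, which encodes an antagonist of the apoptosis inhibitor XIAP, differed by −0.28 (SE 0.22), Ifi27 by −0.17 (SE 0.37) and Ifi35 by 0.21 (SE 0.30). Among the Cdh1-intact arrays, leaving out array 2 gave −0.43 for Xaf1 and leaving out array 3 gave −0.074, while dropping Cdh1-deficient array 3 gave −0.15. For Ifi35, leaving out single arrays gave 0.010 (Cdh1-intact array 2) to 0.53 (array 3 of that group). Rtp4, Xaf1, Ifi27 and Ifi35 were highest on Cdh1-intact array 3. Ifi27 reached 9.53 there, against 8.20 to 8.79 on the other arrays, and Ifi35 10.39, against 9.36 to 10.15.

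The highest value of a member did not always fall on the same array. Cdh1-intact array 3 held the highest value for 12 of the 29 genes, where it did so for 15.0% of all genes. Cdh1-intact array 1 was highest for 6 genes, among them Irf7, Rsad2 and Bst2, where it was highest for 20.4% of all, and Cdh1-intact array 2 for Ifit2 and Oas1a, against 21.7%. Of the Cdh1-deficient arrays, array 2 was highest for 6 members, array 3 for 2 and array 1 for 1. Over all genes these arrays were highest for 14.8%, 13.9% and 14.2%, in that order. The lowest value fell on Cdh1-deficient array 3 for 8 members, where it did so for 14.8% of all genes. It fell on Cdh1-intact array 2 for 7 of the 29, close to the 24.0% of all genes. The median within-group SD of the members was 0.31, against 0.20 over all genes. The range over the 6 arrays exceeded 1 for 13 of the 29, against 22.5% of all genes.

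**Figure D4:**
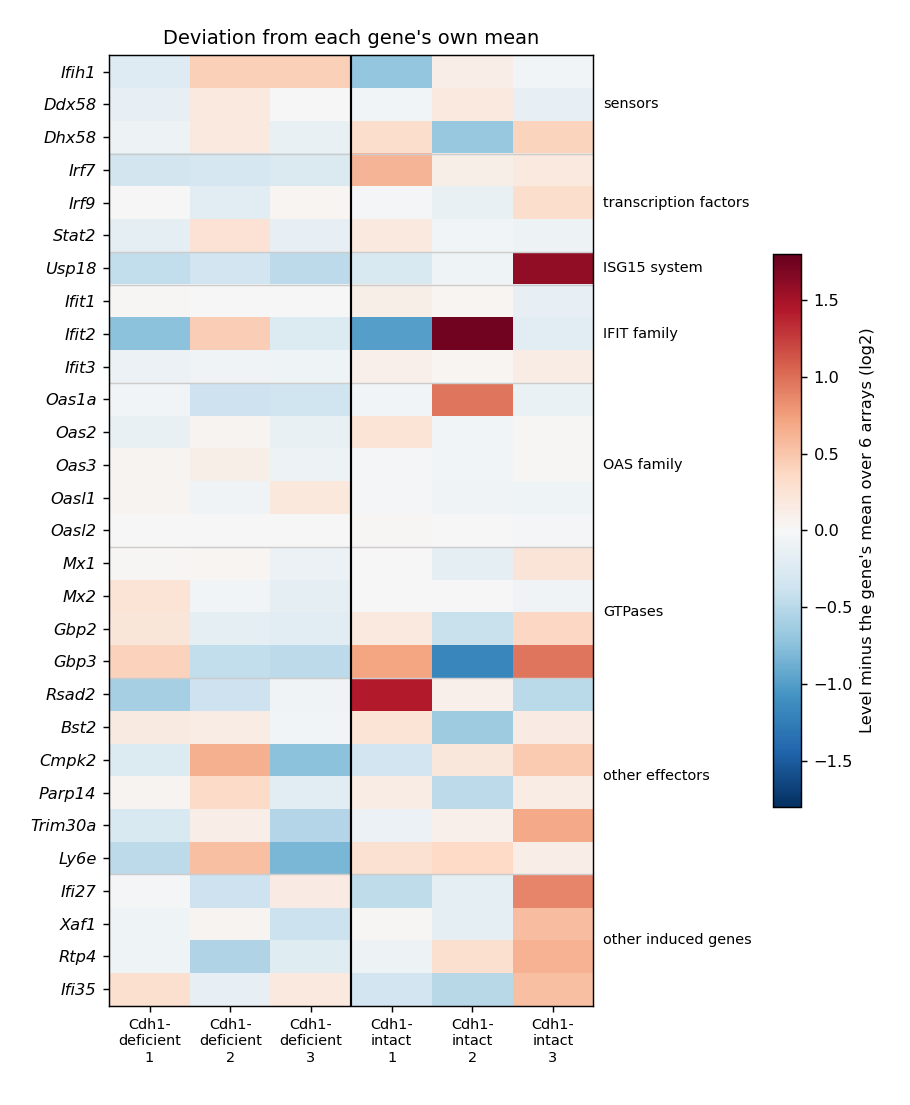
Level of each member minus its own mean over the 6 arrays (log2, red above and blue below), with the Cdh1-deficient arrays left of the line and the Cdh1-intact arrays right. Large upward departures lie on different Cdh1-intact arrays for different genes. They include Rsad2 on array 1, Ifit2 and Oas1a on array 2, and Usp18, Gbp3 and Ifi27 on array 3. The largest downward departure is that of Gbp3 on Cdh1-intact array 2, at −1.18.

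The direction held over the probe sets of some members and not of others. Of the 29 members 16 had a single probe set, and 13 had several, of which 8 gave differences of 1 sign. The 3 probe sets of Rsad2 gave −0.69, −0.74 and −0.52, each with Cdh1-intact array 1 the highest. Those of Ifi35 gave 0.21, 0.18 and 0.30, and those of Ly6e −0.50 and −0.73. For Parp14, Stat2, Ddx58, Dhx58 and Xaf1 the sign depended on the probe set, with no difference over 0.28 in size.

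Upstream of these genes, neither the interferons themselves nor any gene of the pathway passed the test. None of the 6 measured ligand genes reached an unadjusted p under 0.05, against 5.50% of all genes. Ifnb1 stood at 3.56 to 3.90 on the Cdh1-deficient and 3.83 to 4.04 on the Cdh1-intact arrays (difference −0.22), and the interferon-alpha genes Ifna5 and Ifna1 differed by 0.15 and 0.07. Ifng, the product of activated T and NK cells, stood at 3.12 to 3.35 on the Cdh1-deficient arrays. On Cdh1-intact arrays 1, 2 and 3 it stood at 3.62, 5.24 and 3.77. It was highest on the array with the most T-cell transcripts, a single array, and a link was not tested.

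Of 9 receptor and kinase genes none reached an unadjusted p under 0.05, against 5.50% of all genes. The receptor subunit gene Il10rb differed by 0.44 (SE 0.25) and Ifngr2 by 0.31 (SE 0.23), while the kinase gene Jak2 differed by −0.92 (SE 0.47) and the interferon-gamma receptor gene Ifngr1 by −0.69 (SE 0.37). Jak2 and Ifngr1 were both highest on Cdh1-intact array 2, at 8.63 and 10.12. Among 10 measured STAT and IRF genes 2 reached that p, Irf7 and Irf1, where 5.50% of all genes did. Irf1, an activator of interferon-gamma targets, stood at 8.11, 8.09 and 7.91 on the Cdh1-deficient arrays and at 8.95, 9.31 and 8.51 on the Cdh1-intact arrays. Its groups did not overlap, and the difference was −0.89 (SE 0.21, unadjusted p = 0.00626, adjusted p = 0.849, limma). Irf2, a repressor at many of the same sites, differed by 0.60 (SE 0.32), Irf8 by 0.54 (SE 0.45) and Stat3 by −0.42 (SE 0.29).

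Of 13 sensor and adaptor genes, 3 of them members, 1 reached an unadjusted p under 0.05, near the 5.50% of all genes. This was Mavs, the mitochondrial adaptor of the RNA sensors, at 9.73, 9.37 and 9.44 on the Cdh1-deficient arrays and 8.79, 8.91 and 9.20 on the Cdh1-intact arrays. Every Cdh1-deficient array lay above every Cdh1-intact array, by a difference of 0.55 (SE 0.16, adjusted p = 0.849, limma). The DNA sensor gene Aim2 differed by 0.79 (SE 0.62), Tlr3 by −0.15 (SE 0.10) and the adaptor gene Ticam1 by −0.13 (SE 0.09). Of 8 feedback inhibitors 1 reached that p, against the same 5.50% of all genes. Socs3, a cytokine-induced inhibitor of JAK kinases, stood at 4.80, 6.64 and 4.15 on the Cdh1-deficient arrays and at 6.65, 7.56 and 6.81 on the Cdh1-intact arrays, a difference of −1.81 (SE 0.66, adjusted p = 0.849, limma). Its groups were separated by a margin of under 0.01 at Cdh1-deficient array 2. Sh2b3 differed by 0.48 (SE 0.26) and Socs1 by −0.35 (SE 0.27).

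Interferon-induced genes outside the 31 had no common direction. Of 44 measured, 23 were above and 21 below 0, with a median of 0.0023. An unadjusted p under 0.05 was reached by 3 of the 44, near the 5.50% of all genes. These were Parp12 at 0.60 (SE 0.21), Tdrd7 at −0.73 (SE 0.25) and Nmi, the partner of Ifi35, at −0.51 (SE 0.20), while Lap3 differed by 0.49 (SE 0.24). Of 14 genes induced chiefly by interferon-gamma, 6 were above and 8 below 0, with a median of −0.03. Irf1 alone of these 14 reached that p, near the same share of all genes. In this list the immunity-related GTPase genes Irgm2 and Irgm1 differed by 0.56 (SE 0.31) and 0.17 (SE 0.26), and Ifi47 by −0.93 (SE 0.44), with its highest level, 10.27, on Cdh1-intact array 2.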

How the data were processed

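Expression was measured on 1-colour Affymetrix arrays, 1 per mouse, 3 Cdh1-deficient and 3 Cdh1-intact. The deposited table holds log2 values for 45101 probe sets, which the authors made with RMA, per the submitters' processing notes, with no version given. Quantile normalization within RMA hides changes of total RNA. Array medians were 5.07 to 5.13, no detection calls were used and the number of arrays limits precision. The platform annotation of 2016 gave the names: 34945 probe sets carried 1 symbol, 932 several (not used) and 9160 none, and 64 controls were left out. The probe set with the highest mean represented each of 18193 genes, with no filter on level.

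Groups, taken from sample titles, were compared in R 4.3.3 by limma 3.58.1 (eBayes without trend, two-sided, Benjamini-Hochberg over all genes, threshold 0.05), the tool the series description names. The fit was also run on simulated data with independent noise of equal SD in both groups. That run does not bear on arrays that differ in cell markers. Differences are Cdh1-deficient minus Cdh1-intact. Members, pathway lists and marker lists were chosen with earlier results of these data known, and members' tests are described by counts beside all genes. All members were named, with up to 2 genes per direction of smallest p in each pathway list, fixed check genes and otherwise as stated. Alternatives were 2 normalizations, a level filter, 2 probe set rules, trend and robust estimation, array weights, the replicate number as a block, and each array left out. No scanner files, scan dates or batches were given in the sources used here.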

Additional observations from a re-analysis of the deposited data

How the results depend on the processing

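In all 14 alternative settings 0 members passed, and the median difference of the members stayed below 0, between −0.18 and −0.02. Members at an unadjusted p under 0.05 numbered 1 with quantile normalization (5.25% of all genes) and without the dimmest quartile of genes (25 members measured, 5.90%). They also numbered 1 with all probe sets of a gene averaged (5.56%) and with probe sets ending in _a_at, _s_at or _x_at left out (21 members measured, 5.50%). They numbered 3 with median centring (Ifit3, Irf7 and Rtp4, against 5.71% of all genes), where 6 members did not overlap, against 14.6% of all genes. They numbered 1 to 3 when single arrays were left out, against 2.43% to 9.62% of all genes. The 1 gene was Irf7 with averaged probe sets and Rtp4 under the rule on endings. The probe set of Irf7 ends in _a_at and so was left out by construction, which does not show that it matches other genes. No array-wise omission gave any member a pass, and over all genes 0 passed in each setting.

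Signs held for 13 members in every setting that measured them, among them Irf7, Rtp4, Usp18, Ifit3, Oas1a, Rsad2, Ly6e, Trim30a and Ifih1. With median centring the difference turned to −0.063 for Ddx58, −0.065 for Ifit1, −0.042 for Mx2, −0.032 for Oas3 and −0.073 for Oasl2. Centring moves the difference of every gene by the same amount, and the median over all genes went from 0.0034 to −0.0716. With quantile normalization Ddx58 turned to −0.11. With the mean of all probe sets it was −0.040 for Ddx58, −0.042 for Parp14 and 0.059 for Stat2. With single arrays left out, differences ranged from −0.11 to 0.33 for Bst2, −0.60 to 0.093 for Cmpk2, −0.075 to 0.10 for Ddx58, −0.38 to 0.16 for Dhx58, −0.31 to 0.073 for Gbp2 and −1.005 to 0.067 for Gbp3. The ranges were −0.44 to 0.22 for Ifi27, −0.061 to 0.063 for Ifit1, −0.95 to 0.42 for Ifit2, −0.19 to 0.031 for Irf9, −0.13 to 0.069 for Mx1 and −0.082 to 0.12 for Mx2. They were −0.0010 to 0.10 for Oas3, −0.0083 to 0.011 for Oasl2, −0.063 to 0.27 for Parp14 and −0.18 to 0.048 for Stat2. The cause of the turns in settings other than median centring was not tested.

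The groups share replicate numbers. Same-numbered arrays correlated at −0.14, 0.01 and 0.04 in their deviations from the group means across genes, and not every array correlated best with its own number, so the numbers were not taken as pairs. With the replicate block 2 members, Irf7 and Ifih1, had an unadjusted p under 0.05, against 5.36% of all genes, and 0 members passed.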

Other observations

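Isg15, the ubiquitin-like modifier that Usp18 removes, was outside the comparison because its probe set is annotated to Isg15 and Gm9706 together. That probe set stood at 5.37, 4.92 and 5.43 on Cdh1-deficient arrays 1, 2 and 3 and at 5.69, 5.80 and 5.79 on the Cdh1-intact arrays. Every Cdh1-deficient array lay below every Cdh1-intact array, with means of 5.24 ± 0.28 and 5.76 ± 0.06 (SD, n = 3 each) and a difference of −0.52 on the log2 scale. Signal of the 2 annotated genes cannot be told apart, and the difference was not tested. A probe set annotated to Trim30d and Trim30a together averaged 5.19 ± 0.05 in Cdh1-deficient and 5.46 ± 0.43 in Cdh1-intact cells.

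Among the markers of plasmacytoid dendritic cells, Cox6a2, a subunit of the respiratory chain, stood apart from the rest of its list and was chosen after its values were seen. It stood at 10.38, 8.69 and 10.73 on the Cdh1-deficient arrays and at 7.76, 6.50 and 6.44 on the Cdh1-intact arrays, a difference of 3.04 (SE 0.63, unadjusted p = 0.00307, adjusted p = 0.849, limma). Siglech, the defining surface marker of these cells, stood at 4.95 to 5.27 on the Cdh1-deficient and 5.09 to 5.33 on the Cdh1-intact arrays. Cox6a2 was the 1 marker of the 6 that reached an unadjusted p under 0.05, against 5.50% of all genes.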
